A study of Rattus norvegicus with 10 samples.

Results

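The apolipoprotein genes Apoa1, Apoa2, Apoa4, Apoa5, Apob, Apoc1, Apoc2, Apoc3, Apoe and Apoh were examined in rat liver. Every probe set that the platform annotation assigned to exactly 1 gene symbol, that symbol being among these 10, was taken as a member. All 10 genes had such a probe set, which gave 12 member probe sets among the 15859 non-control probe sets of the array, with 2 each for Apob and Apoe. The study hybridized liver RNA of 10 rats of the CRL:WI (Han) strain, aged 6 to 8 weeks, to Affymetrix rat arrays, 1 array per rat. The 5 vehicle rats received deionized water and the 5 treated rats received RG3487 at 180 mg/kg, both by gavage in 5 ml/kg. RG3487 is a ligand of nicotinic acetylcholine receptors. Sampling was at 24 h according to the sample labels, but the series text gives 2 h, and no sex is stated for the rats. They were housed in groups of 5, and the labels do not say how these housing groups fell on the treatments.

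Apolipoproteins are the protein components of the particles that carry triglyceride and cholesterol in blood, and the liver makes most of them. Apob forms the frame of very low density and low density lipoproteins, with 1 molecule per particle. Apoa1 and Apoa2 are the main proteins of high density lipoprotein, and Apoa4 and Apoa5 attach to triglyceride-rich particles. The small C apolipoproteins move between particles and act on lipoprotein lipase and on particle uptake. Apoe is the ligand through which remnant particles are taken up, and Apoh, also called beta-2 glycoprotein I, binds phospholipid.

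Promoter windows were available for 6 of the 10 genes in the RefSeq table for build GRCr8, each covering 250 bases before to 50 bases after an annotated start. The windows of Apoa4 and Apoa5 are shown because these genes had the largest decreases, and a window of Apoe because it is a bright member that did not pass the test. Capitals mark matches, on either strand, to the 6 motifs searched: the TATA box TATAAA, the CCAAT box, the GC box GGGCGG, the sequence CAAAGTCCA bound by the liver receptor HNF4, the sequence GTTAAT that forms part of HNF1 sites, and the sequence AGGTCA that forms part of nuclear receptor sites. The windows are chr8:55435529-55435828 (plus strand), chr8:55457621-55457920 (plus strand) and chr1:88484650-88484949 (minus strand), printed 5′ to 3′ along the gene.
Apoa4: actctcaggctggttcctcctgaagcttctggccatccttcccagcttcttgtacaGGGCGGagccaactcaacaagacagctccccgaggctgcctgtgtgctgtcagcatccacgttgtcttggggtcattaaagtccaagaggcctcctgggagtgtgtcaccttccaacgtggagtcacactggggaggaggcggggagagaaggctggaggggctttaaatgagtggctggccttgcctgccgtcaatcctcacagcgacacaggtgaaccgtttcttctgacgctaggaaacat
Apoa5: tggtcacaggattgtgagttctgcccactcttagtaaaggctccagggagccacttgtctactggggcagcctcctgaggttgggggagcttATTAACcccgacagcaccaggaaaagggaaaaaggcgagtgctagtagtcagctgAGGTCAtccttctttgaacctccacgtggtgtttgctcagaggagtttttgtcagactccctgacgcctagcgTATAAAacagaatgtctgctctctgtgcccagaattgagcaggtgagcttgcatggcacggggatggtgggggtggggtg
Apoe: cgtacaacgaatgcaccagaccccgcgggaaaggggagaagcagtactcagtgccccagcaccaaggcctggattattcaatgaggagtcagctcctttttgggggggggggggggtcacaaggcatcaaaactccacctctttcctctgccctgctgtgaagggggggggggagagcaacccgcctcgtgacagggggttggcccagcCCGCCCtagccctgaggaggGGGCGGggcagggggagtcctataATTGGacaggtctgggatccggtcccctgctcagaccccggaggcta

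The Apoa4 window held a single motif match, GGGCGG, at position -194 with the start site as position 0. The Apoa5 window held TATAAA at -30, AGGTCA at -103 and GTTAAT, on the other strand, at -158. In the Apoe window GGGCGG occurred on both strands, and CCAAT lay on the other strand. Among all 33469 windows of this length, 33.1% held GGGCGG, 14.2% TATAAA, 16.2% AGGTCA, 7.45% GTTAAT, 37.5% CCAAT and 0.391% CAAAGTCCA. No motif was therefore shared by the Apoa4 and Apoa5 windows. A match describes letters in the window and does not show binding.

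Signals are MAS5 intensities in arbitrary linear units. They were compared as log2(signal + 16), with limma fitted to 11894 probe sets after the dimmest 25% were left out, and a probe set was called at a Benjamini-Hochberg adjusted p under 0.05 over all of them. Changes are RG3487 minus vehicle, ± SE for log2 changes and ± SD for signals, with n = 5 per group. The arrays had nearly equal mean signals of 330 to 332, and correlations of log2 signal were 0.977 to 0.986 within groups and 0.960 to 0.976 between groups. The scaling of the arrays bears on these genes. Hybridization controls, added bacterial and phage transcripts, averaged 9.90 ± 0.03 in vehicle and 9.71 ± 0.03 in RG3487 livers on the log2 scale, without overlap (exact two-sided permutation p = 0.00794, the smallest that 5 against 5 allows, and 0.0119 adjusted over 6 array measures). Scaling the arrays to these controls, which assumes equal amounts added, raised the median over all genes from 0.09 to 0.29. All 8 hepatocyte markers were in the fit. Of these, Tat (-0.68), Ass1 (-0.30) and Cps1 (-0.23) were called lower, Hnf4a (0.29) was called higher, and Alb, Ttr, Tdo2 and Asgr1 were not called. Their summed signal was 39920 to 42823 in vehicle and 33469 to 40634 in RG3487 livers. The summed signal of 5 sinusoidal endothelial markers was 2300 to 2569 in vehicle and 1949 to 2277 in RG3487 livers, without overlap (exact permutation p = 0.00794), and Lyve1 among them was called lower (-0.36). After adjustment over 7 marker lists a single list could reach no less than 0.0556, so these sums could not settle a difference. The part of these markers in the results on apolipoproteins was not tested.

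Apoa4 showed the largest decrease of the family. It encodes a lipid-binding protein of chylomicrons and high density lipoprotein that is made in intestine and, in rodents, also in liver. Its signal was 3948, 4493, 4252, 4039 and 4111 in the vehicle livers and 2561, 2241, 1952, 2083 and 2032 in the RG3487 livers. The highest RG3487 liver lay well below the lowest vehicle liver. The mean fell from 4169 ± 213 to 2174 ± 241, to 52.1% of vehicle, a log2 change of -0.94 ± 0.07 (1.92-fold lower, limma adjusted p = 1.16e-05). It ranked 10 by p and 71 by size of decrease among the 11894 probe sets. Its change lay between -1.02 and -0.74 under the 4 scalings of the arrays and remained called with each liver left out in turn. Apoa4 was the only apolipoprotein probe set to pass a threshold of 1.5-fold. In bulk liver, fewer cells of a type and less RNA per cell cannot be told apart. Of 7 intestinal epithelium markers 3 had a probe set, and their summed signal was 124 to 467 in vehicle and 178 to 993 in RG3487 livers, with overlap. Among them Fabp2 was called higher (0.62, adjusted p = 0.0097), Cdh17 was not called, and Cdx2, at 14 to 32, lay below the filter. Their part in the Apoa4 result was not tested.

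Apoa5, which encodes a scarce plasma protein that promotes triglyceride lipolysis, fell next most among the bright members. The vehicle livers gave 3998, 4271, 5059, 4517 and 4102, and the RG3487 livers 3525, 3090, 2872, 2767 and 2780. The groups did not overlap, with RG3487 animal 1 nearest to vehicle. The mean fell from 4389 ± 423 to 3007 ± 317, a log2 change of -0.54 ± 0.08 (1.46-fold lower, limma adjusted p = 0.000633). The decrease was called under all 4 scalings, from -0.62 with arrays centred on their median to -0.35 with spike-in scaling (adjusted p = 0.00443, range over all alternatives 0.000381 to 0.0432).

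**Figure D1:**
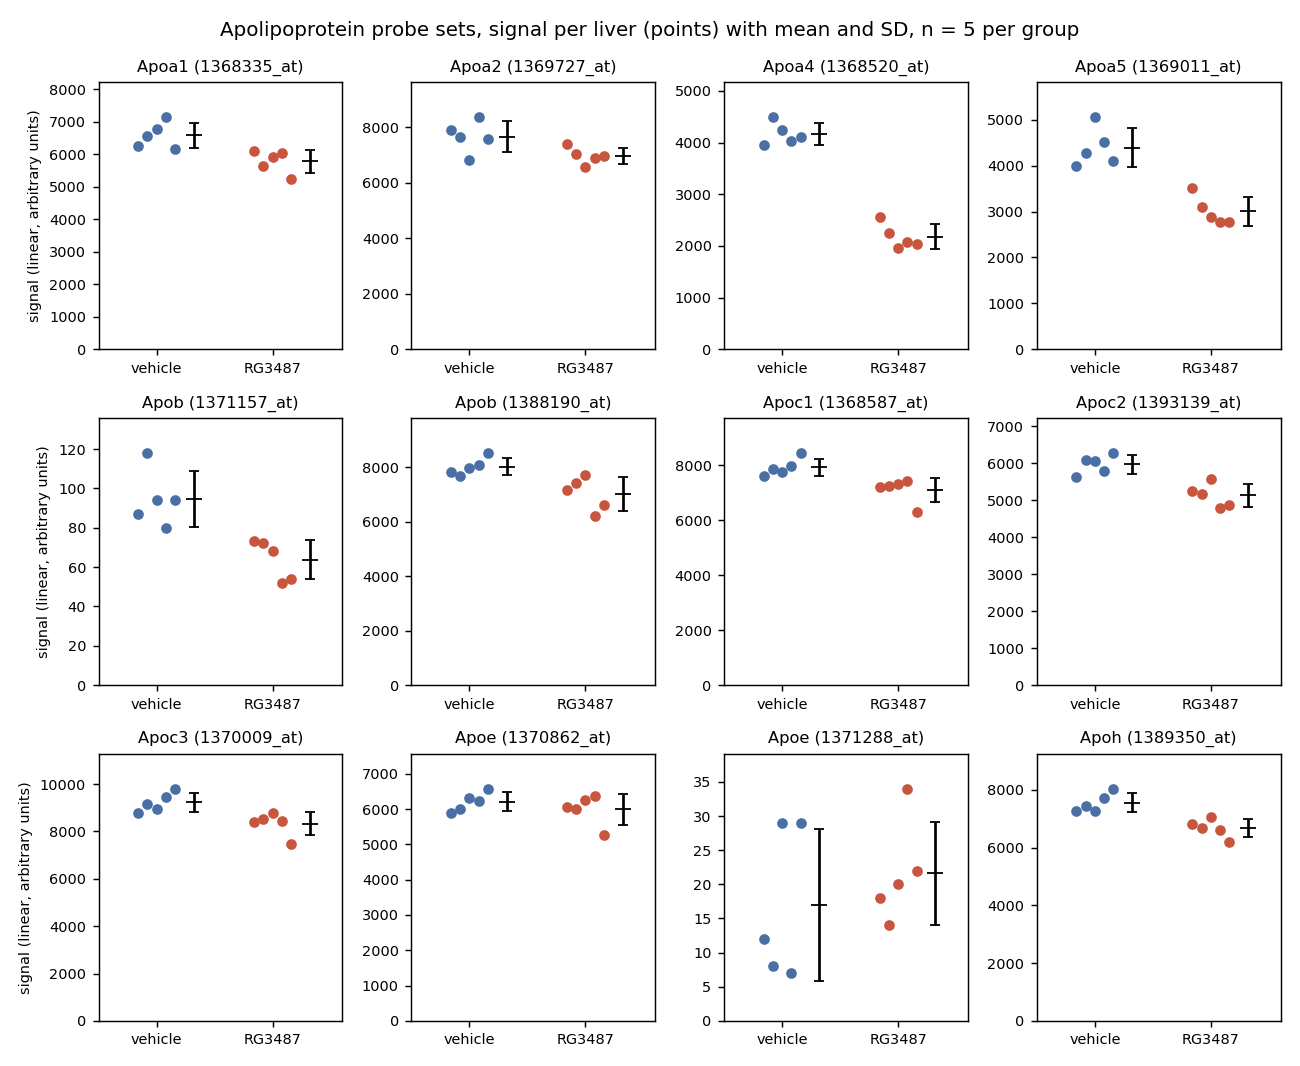
Signal of each apolipoprotein probe set (linear scale, arbitrary units, axis from 0) in the 5 vehicle and 5 RG3487 livers, with points for livers and bars for mean and SD. The Apoa4 points separate most, with means of 4169 and 2174, while the bright Apoe probe set overlaps between groups.

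Apob, the frame protein of very low density lipoprotein, was read by a bright and a dim probe set. The bright one gave 7829, 7689, 7980, 8097 and 8525 in vehicle and 7160, 7423, 7700, 6192 and 6596 in RG3487 livers. RG3487 animal 3 lay just inside the vehicle range and the others below it. Its mean was 8024 ± 320 against 7014 ± 614 (log2 change -0.20 ± 0.06, limma adjusted p = 0.0275). The dim probe set read 87, 118, 94, 80 and 94 against 73, 72, 68, 52 and 54, with no overlap. It changed by -0.47 ± 0.11 (1.39-fold lower, limma adjusted p = 0.00854) and was called under all 4 scalings. Its change was -0.28 with spike-in scaling (adjusted p = 0.0461, range over all alternatives 0.00418 to 0.0461) and -0.31 with a pseudocount of 64. The bright Apob probe set was not called with quantile normalization (-0.03) or spike-in scaling (0.00 after rounding, adjusted p = 0.978, range 0.0116 to 0.978). Leaving out animal 4 or 5 of either group also ended its call (adjusted p = 0.0537 and 0.0606 for vehicle, 0.0586 and 0.0649 for RG3487).

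Of the high density lipoprotein genes, Apoa1 passed as deposited and Apoa2 did not. Apoa1, the activator of cholesterol esterification in plasma, gave 6174 to 7148 in vehicle and 5235 to 6095 in RG3487 livers, without overlap. Its mean moved from 6587 ± 393 to 5787 ± 353 (log2 change -0.19 ± 0.06, limma adjusted p = 0.0254). Leaving out vehicle animal 3 (adjusted p = 0.0520) or 4 (0.0615), or RG3487 animal 2 or 5 (both 0.0563), ended the Apoa1 call (range over all alternatives 0.00988 to 0.909), and with spike-in scaling the change was 0.01. Apoa2 ranged from 6835 to 8372 in vehicle and from 6588 to 7407 in RG3487 livers, with 1 RG3487 liver below the vehicle range. Its log2 change was -0.13 ± 0.05 (limma adjusted p = 0.0851). Apoa2 was called without vehicle animal 3 (-0.17, adjusted p = 0.0222) and with arrays centred on their median (-0.21, adjusted p = 0.0261, range 0.0222 to 0.615), and its sign turned with quantile normalization (0.05) and spike-in scaling (0.06).

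The C apolipoproteins changed by similar amounts. Apoc2, the cofactor of lipoprotein lipase, gave 5637, 6076, 6066, 5783 and 6276 in vehicle and 5252, 5156, 5579, 4800 and 4866 in RG3487 livers. All RG3487 values lay below the lowest vehicle value. The log2 change of Apoc2 was -0.22 ± 0.05 (1.16-fold lower, limma adjusted p = 0.00809), and it remained called with each liver left out. Apoc1, which hinders remnant uptake, gave 7617 to 8449 in vehicle and 6314 to 7424 in RG3487 livers, also without overlap (log2 change -0.16 ± 0.05, limma adjusted p = 0.0355). Apoc3, an inhibitor of lipoprotein lipase and of remnant uptake, gave 8778 to 9800 in vehicle and 7488 to 8781 in RG3487 livers, overlapping by 1 liver (log2 change -0.15 ± 0.05, limma adjusted p = 0.0409). RG3487 animal 5 was the lowest for Apoc1 and Apoc3. Without it the changes were -0.12 and -0.11, and neither was called (adjusted p = 0.0614 and 0.0780). The Apoc1 call was also lost without vehicle animal 2, 4 or 5 or RG3487 animal 1 or 2, and that of Apoc3 without these or RG3487 animal 4 (adjusted p at most 0.0766 and 0.0864). With spike-in scaling none of the 3 was called, and the changes were 0.04 for Apoc1, -0.02 for Apoc2 and 0.05 for Apoc3.

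Apoe, the ligand for remnant uptake, did not pass. Its bright probe set gave 5882, 6013, 6321, 6244 and 6576 in vehicle and 6074, 5995, 6258, 6363 and 5267 in RG3487 livers. Only RG3487 animal 5 lay below the vehicle range. The log2 change was -0.05 ± 0.06 with a 95% interval of -0.17 to 0.07 (limma adjusted p = 0.502), and its sign turned with quantile normalization (0.10) and spike-in scaling (0.14, adjusted p = 0.0581, range 0.0581 to 0.922). The other Apoe probe set read 7 to 34, fell below the filter and has no call. Macrophages also make Apoe, and 2 of 9 Kupffer cell and macrophage markers were called lower, Cd163 (-0.37) and C1qb (-0.23), while 0 were higher. Their summed signal was 3640 to 4439 in vehicle and 3082 to 3881 in RG3487 livers, and their part in the Apoe value was not tested. Apoh, which binds phospholipid and takes part in coagulation, gave 7266 to 8034 in vehicle and 6186 to 7049 in RG3487 livers, without overlap. Its log2 change was -0.18 ± 0.05 (1.13-fold lower, limma adjusted p = 0.0130), although the sign turned with spike-in scaling (0.02).

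Across the family, 11 of 12 probe sets entered the fit, 9 were called lower and 0 higher, against 7.16% of all fitted probe sets called lower and 20.5% called higher. The median change was -0.19 for the 11 probe sets and 0.08 for all fitted probe sets. Most members are among the brightest probe sets of the array, with ranks by mean signal of 9 to 312 for the 10 bright ones. Bright probe sets as a class were shifted too. Of the 534 with a mean signal of at least 2000, 32.6% were called lower and 18.2% higher, with a median change of -0.08. In 7 of the 11 member probe sets the RG3487 livers lay wholly below the vehicle livers, against 4.48% of all fitted probe sets. The member probe sets together took 1.31% ± 0.04 of the summed signal in vehicle and 1.12% ± 0.05 in RG3487 livers, without overlap.

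**Figure D2:**
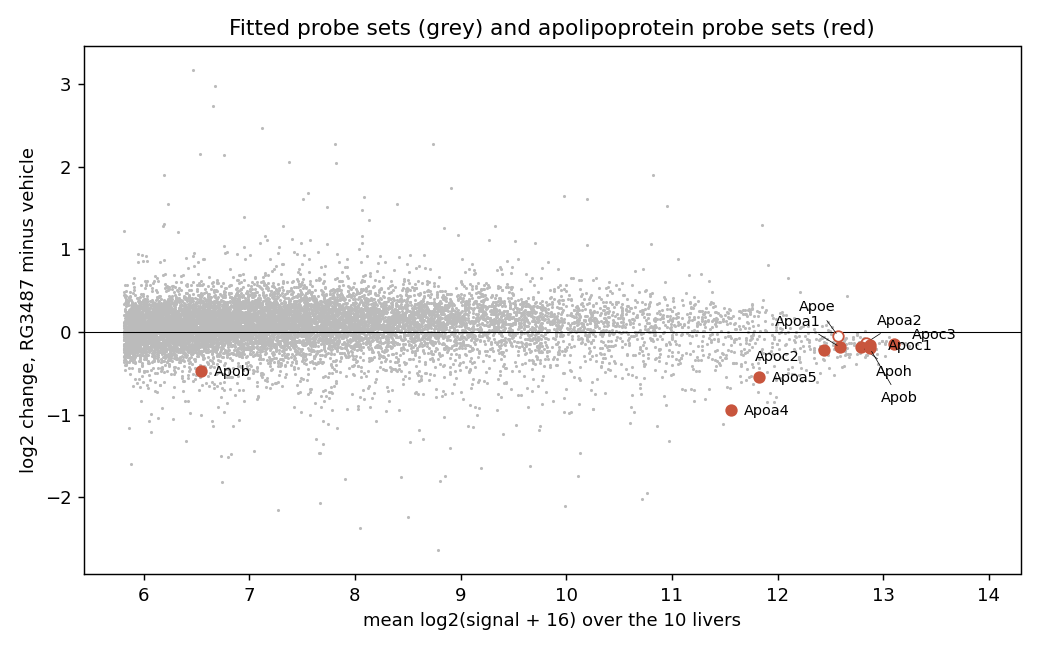
Log2 change (RG3487 minus vehicle, as deposited) against mean log2(signal + 16) over the 10 livers for all 11894 fitted probe sets (grey) and the 11 fitted apolipoprotein probe sets (red; filled where called lower). Apoa4 and Apoa5 lie below the dense band, while the other bright members lie at -0.22 or nearer to 0, where quantile normalization and spike-in scaling turn the sign of several.

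How many members were called depended on the scaling of the arrays. The count of 9 lower as deposited became 10 with arrays centred on their median, against 11.2% of all probe sets, 3 with quantile normalization, against 10%, and 3 with spike-in scaling, against 2.98%. The shares called higher were 11.4%, 12% and 56.2% under these 3 scalings, and 0 members were among them in limma. Of the 534 bright probe sets, 21.2% were lower and 26.6% higher with quantile normalization, and 13.3% and 43.8% with spike-in scaling. The same 3 probe sets, Apoa4, Apoa5 and the dim Apob, were called lower under each of these. In this comparison 5 of 11 probe sets kept a negative sign under every alternative, namely Apoa4, Apoa5, Apoc2 and both of Apob. Relative to the median of all genes, all 11 were lower as deposited. Centring the arrays and spike-in scaling shift every change equally, so they could not alter these relative values. With quantile normalization 9 were lower, the exceptions being Apoa2 and Apoe. On that relative scale Apoa4 stood at -1.03, Apoa5 at -0.64 and Apoe at -0.15 as deposited. The median of all genes is not that of bright probe sets. As deposited the 534 bright probe sets had a median change of -0.08. Apoe lay above that median at -0.05, and the other bright members lay below it.

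**Figure D3:**
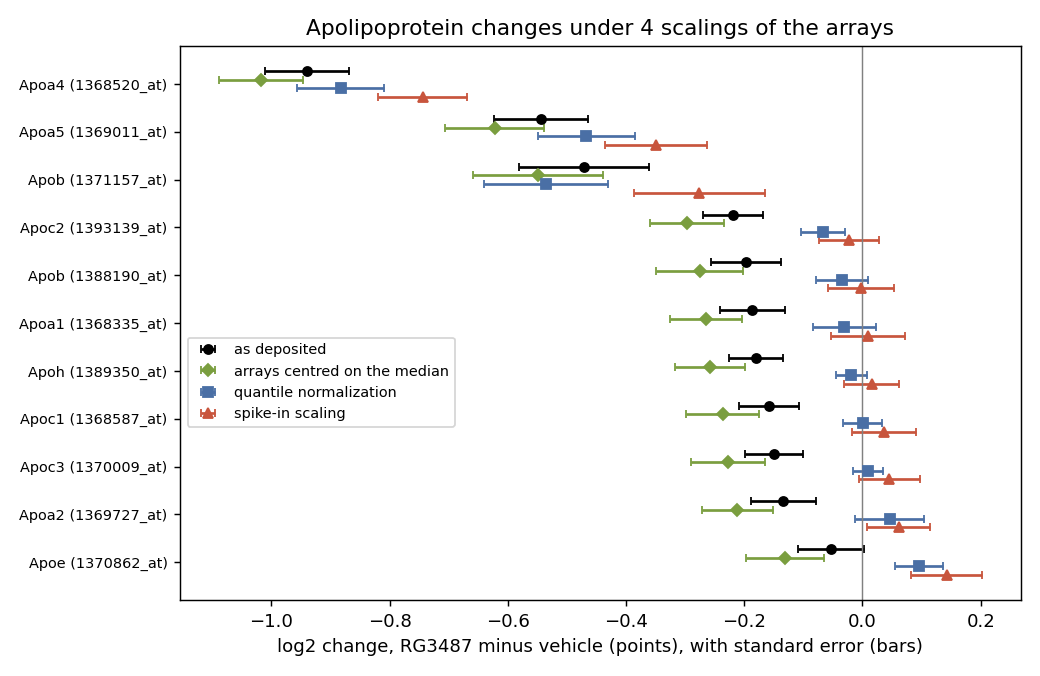
Log2 change (RG3487 minus vehicle, points) with standard error (bars) of the 11 fitted apolipoprotein probe sets under 4 scalings of the arrays. Apoa4, Apoa5 and the dim Apob probe set stay below 0 under all 4, whereas Apoa1, Apoa2, Apoc1, Apoc3, Apoe and Apoh cross 0 with spike-in scaling, and 4 of these 6 also with quantile normalization.

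In a ratio between members within an array, a single scale factor per array cancels, apart from the added 16. Quantile normalization is not such a factor. The change of each ratio was compared for all 45 pairs of the 10 genes. Each gene was read by its brightest probe set. The dim Apob probe set, with a log2 change of -0.47 as deposited, was therefore not among the pairs, and statements on Apob here hold for the bright one only. These ratios were chosen after the values had been seen. Pairs that share a gene are not independent of each other. Among the probe sets read here, Apoa4 and Apoa5 had the largest decreases and Apoe the smallest in the same values. The counts of their pairs therefore restate those changes and are no separate support. An exact two-sided permutation test over the animals was used, with p adjusted over the 45 pairs. Apoa4 fell relative to each of the other 9 genes (9 of 9 pairs, adjusted p = 0.0238, all 9 without overlap), by 0.72 to 0.89 on the log2 scale against the genes other than Apoa5. Against Apoa1 the log2 ratio changed by -0.75, from -0.66 ± 0.11 to -1.41 ± 0.14 (SD). Apoa5 fell relative to the 8 genes other than Apoa4, by 0.33 to 0.49 (adjusted p = 0.0238 to 0.0340), and Apoa4 fell relative to Apoa5 by 0.40 (adjusted p = 0.0238). All Apoa4 pairs passed with each liver left out in turn. The Apoa5 pairs with Apob, Apoc1, Apoc2, Apoc3 and Apoh passed in 4 of 10 such runs (adjusted p at most 0.0510). Among the 28 pairs without Apoa4 or Apoa5, 5 passed, and all 5 held Apoe. Apoe rose relative to Apoc2 by 0.17, Apob by 0.14, Apoh by 0.13, Apoc1 by 0.11 and Apoc3 by 0.10, and with Apoa1 (0.13, adjusted p = 0.0932) and Apoa2 (0.08, adjusted p = 0.587) it did not pass. With each liver left out in turn the Apoc1 ratio passed in 10 of 10 runs and the other 4 in 4 to 7. The 21 pairs of the remaining 7 genes differed by at most 0.08, and 0 passed (exact permutation, adjusted p at least 0.179). Of all 45 pairs 22 passed, 13 without vehicle animal 1, 2 or 4, and 19 with quantile normalization, which kept all 17 pairs with Apoa4 or Apoa5 and, of those with Apoe, only Apoc1 and Apoc2. The highest signal on an array was 9113 to 11390, and the partners Apoa1, Apoa2, Apob, Apoc1, Apoc2, Apoc3, Apoe and Apoh had group means nearer to it than those of Apoa4 and Apoa5. Whether signals near the top of the scale understate changes was not tested.

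**Figure D4:**
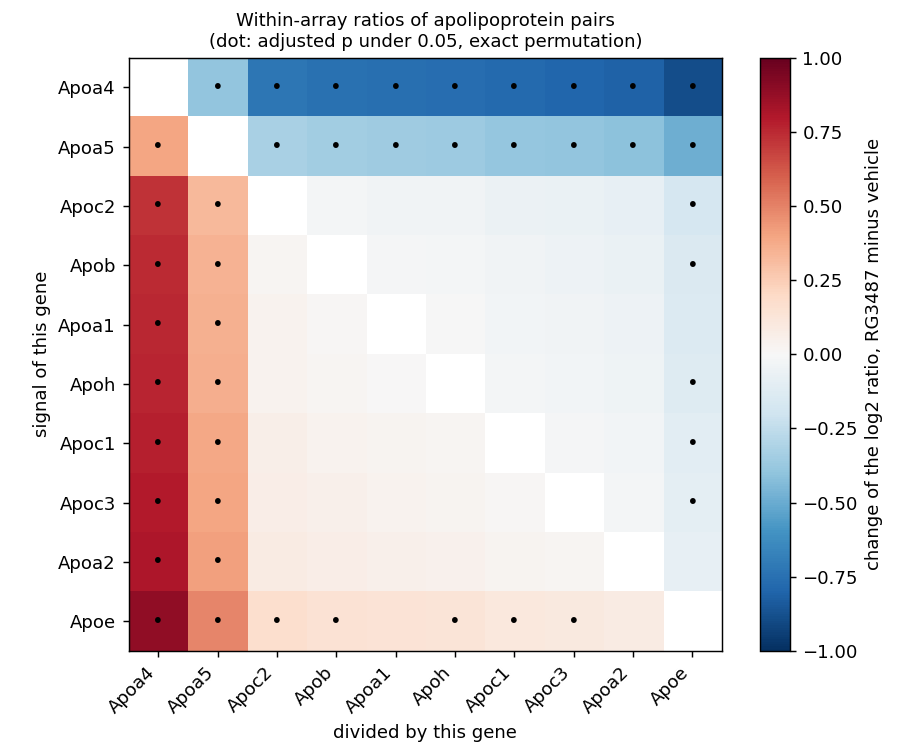
Change of the within-array log2 ratio (RG3487 minus vehicle) for each pair of the 10 genes, row gene over column gene, with blue for a fall and red for a rise. Each gene is read by its brightest probe set, so the dim Apob probe set is left out. Dots mark pairs with an adjusted p under 0.05 by the exact permutation test. The Apoa4 row is blue against all other genes, and the Apoa5 row is blue against all but Apoa4. Apoe is higher against all 7 remaining genes, 5 of them with a dot, and the block between these rows is nearly white.

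Several of these genes are neighbours in the genome. In the RefSeq gene table for GRCr8, Apoa1, Apoc3, Apoa4 and Apoa5 follow each other in this order on chromosome 8, with no other protein-coding gene between them. As deposited their log2 changes were, in that order, -0.19, -0.15, -0.94 and -0.54. The neighbours Apoa4 and Apoc3 thus differed by 0.79 (adjusted p = 0.0238), while Apoa1 and Apoc3 differed by 0.04 (adjusted p = 0.684). A second group on chromosome 1 holds Apoc2, Apoc4, Apoc1 and Apoe in this order. Their log2 changes were -0.22, -0.14, -0.16 and -0.05, and Apoc4, a minor C apolipoprotein, was not called (adjusted p = 0.358). Apoa2, Apob and Apoh lie on chromosomes 13, 6 and 10.

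Of the other steps of lipoprotein metabolism, 7 lists with 72 fitted genes were read from the same fit at 1 probe set per gene. In them 16 genes were called higher and 11 lower, against 22.3% of all 7727 genes called higher and 7.4% lower. Spike-in scaling gave 32 and 7, against 58.7% and 3.24% of all genes. Among other apolipoproteins 2 of 4 fell and 0 rose. Clu, the chaperone also called apolipoprotein J, gave 5088 to 5361 in vehicle and 3508 to 3921 in RG3487 livers (log2 change -0.49 ± 0.05, limma adjusted p = 3.98e-05). Apon changed by -0.34 ± 0.10 (adjusted p = 0.0212), but spike-in scaling ended its call (0.193, range of adjusted p 0.00666 to 0.193), as it ended when vehicle animal 2, vehicle animal 4 or RG3487 animal 2 was left out. In the list of plasma remodelling 5 of 11 genes fell and 0 rose. Lipc, the hepatic lipase of remnants and high density lipoprotein, fell from 2673 ± 266 to 1443 ± 135 (log2 change -0.88 ± 0.08, adjusted p = 3.73e-05). Angptl4, an inhibitor of lipoprotein lipase, changed by -1.62 ± 0.19, and the high density lipoprotein enzymes Pon1 and Pon3 by -0.32 ± 0.04 and -0.31 ± 0.07, of which Pon3 lost its call when scaled to the spike-in controls (adjusted p = 0.135, range 0.00302 to 0.135). Lcat, the plasma enzyme that Apoa1 activates, was called as deposited (-0.19 ± 0.05, adjusted p = 0.0200) and stood at 0.01 with spike-in scaling.

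In the list of particle assembly and secretion 4 of 17 genes rose and 1 fell, against 22.3% of all genes called higher and 7.4% lower. The same shares apply to the other lists of this paragraph. Spike-in scaling, under which 58.7% of all genes were higher and 3.24% lower, gave 11 and 0. Arfrp1 changed by 0.50 ± 0.08, Cideb, which promotes lipidation of very low density lipoprotein, by 0.34 ± 0.07 and Dgat1, a triglyceride synthase, by 0.29 ± 0.06. P4hb, a subunit of the microsomal triglyceride transfer complex, changed by -0.32 ± 0.05 but spike-in scaling left it at -0.12, not called (adjusted p = 0.0730, range 0.000729 to 0.0730). Mttp, the other subunit of that complex, loads lipid onto Apob. It gave 1836 ± 82 and 1787 ± 141 and was not called (-0.04, adjusted p = 0.643). Of the Apob mRNA editing factors 2 of 4 rose, Rbm47 (0.33 ± 0.06) and Syncrip (0.61 ± 0.15). The editing enzyme Apobec1 (-0.15, adjusted p = 0.328) and its partner A1cf (-0.22, adjusted p = 0.317) were not called. Among receptors and clearance genes 2 of 8 rose and 1 fell. Lrp1, a remnant receptor that binds Apoe, fell from 478 ± 62 to 283 ± 44 (-0.73 ± 0.11, adjusted p = 0.000943), while Lsr (0.42 ± 0.08) and the heparan sulphate carrier Sdc1 (0.38 ± 0.10) rose. Of 3 sterol efflux pumps 0 were called by limma. Abcg5 changed by -0.56 ± 0.25 and was called without RG3487 animal 4 (-0.77, adjusted p = 0.0222, range 0.0222 to 0.288), and Abca1, the pump that lipidates Apoa1, changed by 0.17 ± 0.08 and passed only under spike-in scaling (0.37, adjusted p = 0.00176, range 0.00176 to 0.597).

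Of 25 transcription factors of apolipoprotein genes 8 rose and 2 fell, against 22.3% of all genes called higher and 7.4% lower, while spike-in scaling gave 15 and 2, against 58.7% and 3.24%. Foxa3, a forkhead factor of hepatocytes, rose from 125 ± 20 to 241 ± 22 (log2 change 0.88 ± 0.10, limma adjusted p = 0.000191). Nr0b2, a repressor of other nuclear receptors, fell from 331 ± 125 to 119 ± 42 (-1.36 ± 0.23, adjusted p = 0.00158). Nr1d2, a clock repressor, rose by 0.77 ± 0.16, and Rora, which binds related sites as an activator, fell by 0.50 ± 0.09. Hnf4a, a main activator of apolipoprotein genes, changed by 0.29 ± 0.06 (adjusted p = 0.00653) and was also called higher with quantile normalization and spike-in scaling.

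Other secreted liver proteins, which share the brightness of the apolipoproteins, fell in 8 of 16 and rose in 0, with a median change of -0.14. Of all genes 7.4% were called lower and 22.3% higher, and of the 534 bright probe sets 32.6% and 18.2%. With quantile normalization 4 were lower and 0 higher, against 21.2% and 26.6% of the bright probe sets. With spike-in scaling 2 were lower and 2 higher, against 13.3% and 43.8% of the bright probe sets. Afm, a vitamin E carrier of plasma, fell from 5619 ± 189 to 3914 ± 96 (-0.52 ± 0.04, adjusted p = 1.24e-05), and Plg, the precursor of plasmin, changed by -0.33 ± 0.05, both under all 4 scalings. Vtn (-0.27 ± 0.04), a cell adhesion protein, lost its call under spike-in scaling (adjusted p = 0.184, range 0.000804 to 0.184). Ambp (-0.27 ± 0.04) did so as well (adjusted p = 0.175, range 0.000796 to 0.175). Alb, the most abundant plasma protein, gave 6959 ± 434 and 6895 ± 728 and was not called (-0.02, adjusted p = 0.875).

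**Figure D5:**
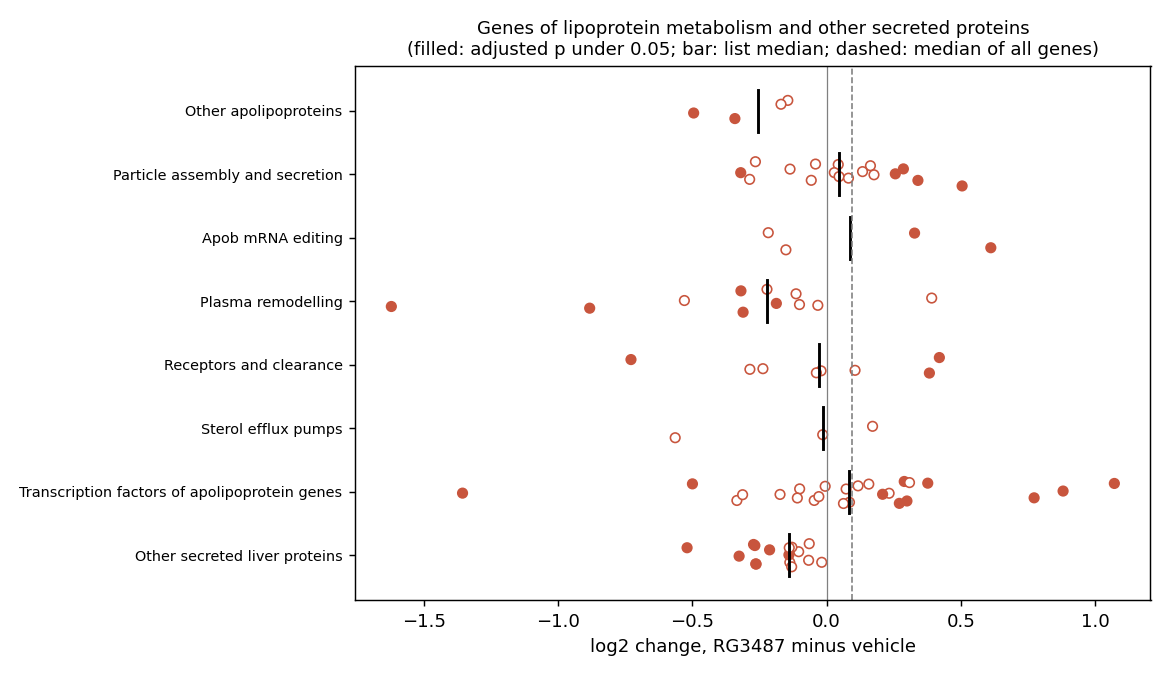
Log2 change (RG3487 minus vehicle, as deposited) of the fitted genes of 7 lists of lipoprotein metabolism and of other secreted liver proteins, with 1 point per gene, filled where the adjusted p was under 0.05, a bar for the list median and a dashed line for the median of all genes (0.09). The lists of other apolipoproteins, plasma remodelling and other secreted liver proteins have the medians furthest below 0 (-0.26, -0.22 and -0.14). Those of receptors and clearance and of sterol efflux pumps lie just below it (-0.03 and -0.01). With spike-in scaling 34 of the 88 genes of all 8 lists were called higher and 9 lower, against 58.7% and 3.24% of all genes.

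The genes whose pattern over the 10 livers was most like that of the members were sought by Pearson's r of log2 signal. Among the 3 nearest genes of each member, 4 were shared by 2 members each. Cd320, the receptor for the vitamin B12 carrier transcobalamin, was nearest to Apoa4 (r = 0.984) and the second nearest to Apoa5 (r = 0.957), and it changed by -0.79. Cps1 was near Apob and Apoc2 (r = 0.980 and 0.960), Serpina1 near Apoc1 and Apoc3 (r = 0.975 and 0.980) and Fabp1 near Apoc3 and Apoh (r = 0.972 and 0.981). These correlations are descriptions over 10 livers that share array scaling and the difference between groups, picked as the highest among all genes.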

How the data were processed

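Liver RNA of 10 rats, 5 vehicle and 5 RG3487, was labelled from 1 ug and hybridized to Affymetrix arrays, per the labels' protocols. The deposited values are MAS5 signal intensities in whole numbers on a linear scale, made with MAS5 per the submitters' processing notes. The sources used here name neither its version nor its scaling target. Arrays have no read depth, so precision rests on 5 animals per group. Of 15859 non-control probe sets, 12562 had 1 gene symbol, 332 several and 2965 none.

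Values were analysed as log2(signal + 16) with limma 3.58.1 in R 4.3.3 (lmFit, eBayes with trend, two-sided), after the dimmest 25% of probe sets by mean were left out. The pseudocount makes folds of dim genes smaller. A gene was represented by its probe set with the highest mean. On data simulated for this comparison with 200 of 11894 probe sets changed, recovery was 33.1% for changes of 1.25-fold, 75.5% for 1.5-fold and 93.3% for 2-fold. In the data themselves more probe sets were called, 2443 higher and 852 lower. The simulated recovery also covers probe sets of all brightness, so it does not give the recovery for the members. The members and lists were chosen with earlier results of these data known. Named were every member probe set and, in each list, up to 4 called genes with the smallest p, or 2 where none was called. Alb, Apobec1, A1cf, Apoc4, Hnf4a, Lcat and Mttp were named after their values were seen. The limma p-values set the difference between groups against the spread between animals within groups. With trend, that spread is drawn toward the spread of probe sets of like mean signal. Members called lower numbered 9 with the trend and 5 without it. The exact permutation p-values compare it with regroupings of the animals. The part of the housing groups was not tested. The titles number the rats 1 to 5 in each group but the source names give different animals, so numbers were not used to pair them. Of 8 marker lists, pancreas had no probe set with 1 of its symbols and was not used here.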

Additional observations from a re-analysis of the deposited data

Results flagged for a closer look

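Each group of 5 values behind a named probe set or array measure was checked for a value standing apart (gap over range above 0.71, Dixon's limit for 5 values). Of 86 groups 5 passed, and chance gives about 1 in 20. In RG3487 animal 5 the log2 signal was low for Apoc1 (12.63 against 12.82 to 12.86 in the other 4 animals, ratio 0.824), Apoc3 (12.87 against 13.04 to 13.10, ratio 0.729) and Ambp (12.52 against 12.62 to 12.66, ratio 0.751). In RG3487 animal 3 Angptl4 was low (8.11 against 8.91 to 9.18, ratio 0.747), as was the median signal of all probe sets (92 against 95 to 96, ratio 0.750).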

How the results depend on the processing

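Apoa4, Apoa5 and the dim Apob probe set were called lower in every alternative in which they were fitted, apart from the 1.5-fold threshold, which only Apoa4 passed. That threshold left 1 member, and 4 list genes higher and 4 lower. Of all 11894 fitted probe sets it left 249 higher and 213 lower. The dim Apob probe set was not fitted with the dimmest 50% left out. Members called lower numbered 3 with quantile normalization and with spike-in scaling, 5 with eBayes without trend, 5 with the replicate number as a block, and 5 to 9 with each array left out (5 without vehicle animal 4 or RG3487 animal 5). Of all 11894 fitted probe sets, 852 were called lower as deposited, 1193 with quantile normalization and 354 with spike-in scaling. The count was 811 without trend, 820 with the replicate block, and 682 to 887 with each array left out. With spike-in scaling, 34 list genes were higher and 9 lower, against 58.7% and 3.24% of all genes. With each array left out, 15 to 16 list genes were higher and 17 to 25 lower. In the same runs 1809 to 2566 of the 11894 fitted probe sets were higher and 682 to 887 lower. Pairs passing numbered 13 to 23 with each array left out and 19 with quantile normalization. The alternatives for pairs were chosen after seeing the data.

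With quantile normalization the log2 changes were -0.030 for Apoa1, 0.046 for Apoa2, -0.035 for the bright Apob probe set, 0.00045 for Apoc1, -0.067 for Apoc2, 0.0091 for Apoc3, 0.096 for Apoe and -0.019 for Apoh. With spike-in scaling they were 0.0089, 0.062, -0.0020, 0.037, -0.023, 0.046, 0.14 and 0.016 in the same order. With arrays centred Apoa2 was -0.21 and was called. Calls lost with their value kept were those of Apoa1 (-0.19), Apob (-0.20), Apoc1 (-0.16) and Apoc3 (-0.15) without trend, of the last 3 and Apoh (-0.18) with the replicate block, of Apoc3 with no filter, of Apob and Apoc3 with the rank-sum test, and of every called member but Apoa4 at 1.5-fold, among them Apoa5 (-0.54), the dim Apob (-0.47) and Apoc2 (-0.22). With each array left out the changes were -0.21 to -0.15 for Apoa1, -0.17 to -0.10 for Apoa2, -0.23 to -0.15 for the bright Apob, -0.17 to -0.12 for Apoc1 (-0.175 to -0.117), and -0.17 to -0.11 for Apoc3.

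Same-numbered animals were not paired by the data. The correlations of their deviations were 0.03, 0.17, 0.01, 0.08 and -0.04, and not every animal was nearest to its own number. Among 25 named list genes 0 changed sign, and 5 lost their call with spike-in scaling. Syncrip, Sdc1, Nr1d2 and Apon lost theirs with the rank-sum test.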
